A study of Mus musculus with 16 samples.

Results

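The uninflamed colonic mucosa of healthy control mice was described gene by gene with a quantitative PCR panel of inflammation genes. The 4 healthy samples, of 16 in the series, came from mice given phosphate-buffered saline (PBS) both into the rectum and by mouth. They carry the numbers 3, 4, 5 and 6 and are called healthy samples 3 to 6 here. The labels give no age, sex or strain. The series text speaks of pooling equal amounts of RNA from each mouse, while every sample has its own number, so a sample may be 1 mouse or a pool. Spreads are therefore spreads between samples, which may be technical.

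Each assay of the TaqMan OpenArray panel runs in its own nanolitre well and gives a cycle threshold (Ct), the PCR cycle at which fluorescence crosses a threshold. A low Ct means much RNA, and 40 stands for no amplification. A gene counted as read in a sample when its Ct was 28 or lower. Its level was the mean Ct of 13 reference genes in that sample minus its own Ct (−ΔCt), a log2 scale on which 0 is the reference mean and 1 unit is a doubling where PCR is fully efficient. The reference Ct was 20.1, 19.3, 19.3 and 19.5 in healthy samples 3, 4, 5 and 6. All 584 panel genes, measured by 648 assays, were classed and the genes read in every measured healthy sample were put in order. There is a single group of samples, so nothing was tested, and every statement below is a description.

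The colonic mucosa is a single layer of epithelium over a lamina propria that holds resident macrophages, lymphocytes, mast cells and stromal cells. Even without disease it faces a dense microbiota, and its epithelium secretes antimicrobial proteins and takes up, senses and tolerates microbial products. Acute inflammatory cytokines are known to be kept low in this state, while receptors, sensors and their signalling partners are held ready. In bulk tissue such as this, fewer cells of a type and less RNA per cell cannot be told apart.

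Most of the panel was readable. Of 584 genes, 458 (78.4%) were read in every measured healthy sample, 50 in some, and 76 (13%) in none of them. Among the 50, 18 were read in 1 sample, 14 in 2 and 18 in 3. The 76 scarce genes had a Ct above 28 throughout. Of these, 27 gave no amplification in any measured sample and 22 amplified late in every one. The remaining scarce genes amplified late in some samples and not in others. A scarce gene is not shown to be absent: the lowest level that could be read was −7.88 in healthy sample 3, and −8.66, −8.67 and −8.46 in samples 4, 5 and 6. These limits follow the reference Ct of each sample. Without the variable reference genes Ywhaz and Rplp2 that Ct was 19.16, 18.80, 18.74 and 19.15 in samples 3, 4, 5 and 6.

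Abundant genes, with a mean level of 0 or higher, numbered 42 (7.19%), and 35 of them were not reference genes. Levels of the 442 genes read throughout that were not reference genes ran from −8.08 to 3.81 with a median of −3.52. Their quartiles were −5.19 and −1.60. The order fell steeply over its first genes and then declined evenly.

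**Figure D1:**
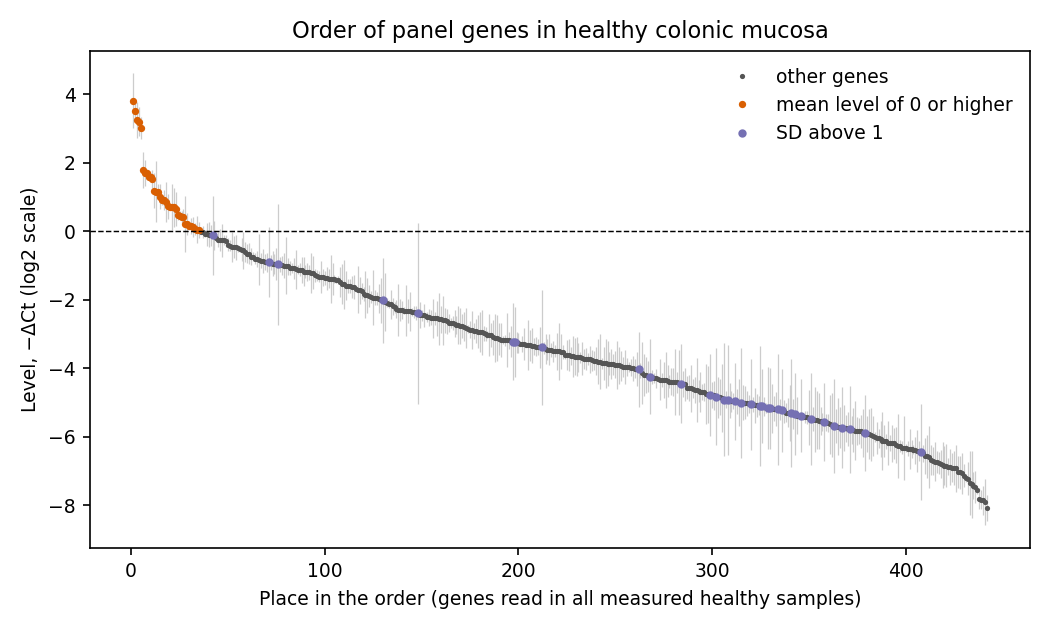
Mean level (−ΔCt, log2 scale) of the 442 non-reference genes read in every measured healthy sample, ordered from highest to lowest, with the SD over 3 or 4 samples as grey bars. Orange points are genes with a mean level of 0 or higher, purple points are genes with an SD above 1, and the dashed line is the reference mean. Genes with an SD above 1 all lie below 0 and are most frequent between −6 and −4.

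Krt8, Oit1, Cd74, Reg3g and Ccl6 stood at the head of the order. Krt8, a keratin of simple epithelia, had levels of 4.56, 3.46, 4.36 and 2.86 in healthy samples 3, 4, 5 and 6 (3.81 ± 0.79, mean ± SD, n = 4, as for all values below unless another n is given), which is well above the reference mean. Samples 3 and 5 were high and sample 6 was low. Krt8 was the only panel gene among 15 epithelial markers, so this list rests on 1 gene. Its level does not measure the epithelial share of the tissue.

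Oit1, a secreted protein gene of the FAM3 family, had levels of 3.80, 3.55, 3.61 and 3.10 (3.52 ± 0.30). Reg3g, a C-type lectin that kills Gram-positive bacteria at the epithelial surface, had 3.08, 3.47, 3.56 and 2.65 (3.19 ± 0.42). For both genes healthy sample 6 was the lowest. Cd74, the invariant chain of MHC class II, ran differently, with 2.87, 2.71, 3.81 and 3.59 (3.24 ± 0.54), so that samples 5 and 6 lay above samples 3 and 4. Ccl6, a CC chemokine of rodents, was measured in 3 samples and had 3.38, 2.79 and 2.87 in samples 4, 5 and 6 (3.02 ± 0.32).

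These 5 genes were followed by a gap of 1.42 ± 0.51 between Ccl6 and Abcb1a (SD of the paired difference, n = 3). Abcb1a, an efflux pump of the apical membrane, averaged 1.78 ± 0.52 and opened a flatter run. Cd24a, a surface sialoglycoprotein, averaged 1.70 ± 0.37, the chaperone Hsp90ab1 1.69 ± 0.11, and the small GTPase Rhoa 1.57 ± 0.13. Plp2, a membrane protein of epithelial cells, and Sod1, the cytosolic superoxide dismutase, averaged 1.58 ± 0.03 and 1.51 ± 0.26. Saa1, an acute-phase apolipoprotein that the colonic epithelium also makes, had 1.93, 1.03, 0.94 and 0.82, with healthy sample 3 above the others (1.18 ± 0.51).

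Fabp4, a fatty acid carrier of adipocytes and macrophages, had 1.32, 2.30, 0.21 and 0.78 (1.15 ± 0.89), the widest spread among the 15 highest genes. Sectm1b averaged 1.15 ± 0.22. F11r, the tight-junction protein JAM-A, had 1.54 in healthy sample 5 and 0.79 to 0.85 in the other samples (SD 0.36).

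Most neighbours in the order did not differ beyond their spread. In the 14 pairs of neighbours among these 15 genes, only 2 differed by more than the SD of their paired difference, Ccl6 over Abcb1a and Sod1 over Saa1 (0.33 ± 0.31). Over the whole order this held for 7 of 441 pairs. Neighbours in a long order lie close together by construction, so these counts say only that single places in it are not resolved. Levels of different genes also carry the efficiency of each assay. In 36 genes with several assays read throughout, the assays of a gene differed by a median of 0.70 cycles in mean Ct, by up to 2.08, and by more than 1 cycle in 11 genes. Differences of that size between genes are not resolved.

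Further abundant genes included secreted, antibacterial and lipid-carrying proteins. Fam3b, a secreted FAM3 protein, averaged 0.90 ± 0.14, and Anxa1, an annexin that limits neutrophil recruitment, 0.89 ± 0.29. Casp1, the protease that matures Il1b and Il18, averaged 0.72 ± 0.36, while its adaptor Pycard, at −0.14 ± 0.43, lay just below the limit for abundant genes. Pglyrp1, an antibacterial peptidoglycan recognition protein, averaged 0.47 ± 0.17. Apoe, the lipid carrier, was 0.82, 0.84 and 0.99 in healthy samples 3, 4 and 5 but −0.08 in sample 6.

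Cell type markers were few on the panel and differed widely in level. All 9 markers of monocytes, macrophages and dendritic cells on the panel were read throughout, against 78.4% of all panel genes. For 1 of the 9 this rests on assays inside 1 exon, a kind described below. The 9 had a median of −3.65 and a range from −3.91 (Cd163, a scavenger receptor) to −1.39 (Mrc1, the mannose receptor). Mrc1 had −2.05, −1.01, −1.44 and −1.08 (SD 0.47), lowest in healthy sample 3. Kit, the receptor of mast cells and interstitial cells of Cajal, averaged −1.14 ± 0.37. Lymphocyte markers lay lower. Cd4 averaged −5.03 ± 0.37, the costimulatory receptor Cd28 −6.42 ± 0.30 and its inhibitory counterpart Ctla4 −6.91 ± 0.49. Icos, also of activated T cells, was read in 3 of 4 samples. The B cell genes Cd180 and Cr2 averaged −4.98 ± 0.37 and −6.25 ± 0.52.

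Markers of granulocytes were low or unread. Of 9 neutrophil genes, 5 were read throughout, 2 in some samples and 2 were scarce. Over the panel 78.4% were read throughout and 13% were scarce. For 2 of the 9, Il8ra among them, the class rests on assays inside 1 exon, a kind described below. Fpr1, a formyl peptide receptor, was the highest at −4.15 ± 0.90. The granule protein gene Camp had Ct values of 29.2, 28.8, 30.6 and 29.8 and the elastase gene Ela2 did not amplify. S100a8, which forms calprotectin with S100a9, had levels of −6.94, −5.05, −6.68 and −4.07 (−5.68 ± 1.36). S100a9 had −6.29, −4.91, −7.30 and −5.08 (−5.90 ± 1.12). Healthy samples 4 and 6 lay above samples 3 and 5 in both calprotectin genes. Ltf, lactoferrin, did not follow them and had −6.80, −7.31, −6.03 and −7.57. Prg2, the eosinophil major basic protein, averaged −6.73 ± 0.58, while the mast cell receptor chain Fcer1a was scarce. No stromal or smooth muscle marker was on the panel, and the endothelial genes were low, with Selp at −6.56 ± 0.52 and Sele scarce.

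Of the list of Toll-like receptors and their partners, which also holds adaptors, kinases and Nod receptors, all 24 panel genes were read throughout, against 78.4% of the panel. For 5 of the 24 this rests on assays inside 1 exon, a kind described below that was nearly always read. The median level was −3.54, against −3.52 over all 442 genes. An assay shared by Tlr1 and Tlr6 was the highest at −0.27 ± 0.15. Separate assays gave Tlr1 and Tlr6 means of −3.47 and −4.87 over their measured samples. Tlr4, the lipopolysaccharide receptor, had −1.60, −1.30, −1.47 and −1.04 (−1.35 ± 0.24), a narrow spread. Tlr3, which binds double-stranded RNA, and Tlr2, which binds lipoproteins, averaged −2.36 ± 0.13 and −2.31 ± 0.26. Tlr9, the receptor of CpG DNA, was among the lowest at −6.08 ± 0.53. The adaptor Myd88 averaged −2.33 ± 0.34 and the kinase Irak4 −1.68 ± 0.08. Tollip, which dampens this pathway, averaged −1.55 ± 0.71. Nod1 averaged −3.97 ± 0.15, whereas Nod2, a sensor of muramyl dipeptide known for its risk alleles in Crohn's disease, averaged −6.27 ± 0.93. Nod2 was −5.66, −5.88 and −5.89 in healthy samples 3, 4 and 5 and −7.66 in sample 6.

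Cytokines and their receptors were described family by family, beside 78.4% of panel genes read throughout and 13% scarce. Of 16 interleukin 1 family genes, 10 were read throughout, 3 in some samples and 3 were scarce. Il18, which epithelial cells store as a precursor, stood highest with 0.35, 0.63, 0.10 and 0.53 (0.40 ± 0.23). The receptor antagonist Il1rn averaged −1.63 ± 0.35 and the alarmin Il33 −3.90 ± 0.38. Il1b had −6.69, −5.92, −5.64 and −4.43 (−5.67 ± 0.94), highest in healthy sample 6.

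In the interleukin 6 family the shared signal chain Il6st averaged −1.08 ± 0.13, and Il6ra −5.39 ± 0.07. Il6 itself had Ct values of 29.7, 29.1 and 26.9 in healthy samples 4, 5 and 6 and was read in sample 6 only. Its deposited Ct for sample 3 equalled the mean of the other samples and was treated as a filled gap, that is, as not measured. Of 11 interleukin 10 family genes, 5 were read throughout and 6 were scarce. The read ones were receptors, among them Il10rb at −0.09 ± 0.08 (n = 3), Il22ra1, through which the epithelium answers interleukin 22, at −2.73 ± 0.26, and the decoy receptor Il22ra2 at −4.30 ± 0.27. All the scarce ones were ligands. Il10 did not amplify in any sample, and Il22 (an assay shared with Iltifb) had Ct values of 30.6, 28.3 and 31.9 in healthy samples 3, 5 and 6.

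In the interleukin 17 family the receptor Il17ra averaged −2.67 ± 0.26, while Il17a, Il17c and Il17f were scarce. Il17a had Ct values of 29.2, 31.6 and 30.8 in healthy samples 4, 5 and 6. Of 16 genes of the common gamma chain and type 2 list, 7 were scarce, against 76 of 584 panel genes. They were Il2, Il4, Il5, Il9, Il13, Il21 and Il5ra, of which Il4 and Il9 did not amplify at all. Il13ra1, a receptor chain for interleukins 4 and 13, averaged −0.46 ± 0.33 and the gamma chain Il2rg −3.25 ± 0.31. Il15, which maintains intraepithelial lymphocytes, averaged −2.48 ± 0.07.

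The interferon gamma receptor chains Ifngr1 and Ifngr2 averaged 0.20 ± 0.82 and 0.06 ± 0.17 (n = 3), and the type I receptor chains Ifnar1 and Ifnar2 −1.95 ± 0.22 and −1.38 ± 0.33. Ifngr1 was uneven, with 1.09, −0.14, 0.62 and −0.76. Ifng had Ct values of 28.1, 27.1, 28.9 and 26.6 and was read in samples 4 and 6. Il12a was read in 1 sample, as was Il12b. The receptor chain Il12rb2 was scarce.

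Among TNF receptors, Ltbr averaged −0.75 ± 0.13, Tnfrsf1a −1.33 ± 0.15 and Tnfrsf1b −1.89 ± 0.31. Tnf had −5.95, −7.03, −5.51 and −6.22 (−6.18 ± 0.64), lowest in healthy sample 4. Of 16 TNF ligands, 4 were scarce, against 76 of 584 panel genes. Among them were Cd70, which did not amplify, and Cd40lg. Tnfsf13, the B cell factor APRIL, was the highest ligand at −2.45 ± 0.38, in an assay it shares with a readthrough transcript.

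Chemokines spanned nearly the whole range. Of 17 CC chemokines, 13 were read throughout, a share near the 78.4% of the panel, from Ccl6 at 3.02 to Ccl19 at −6.74 ± 0.33. Ccl28, a mucosal chemokine of the colonic epithelium, averaged −1.01 ± 0.36 (n = 3) and Ccl11, which attracts eosinophils, −2.51 ± 0.16. Ccl25, known from the small intestine, had −3.76, −4.19, −3.90 and −5.55. Ccl5 and Ccl8, which attract leukocytes, averaged −2.93 ± 0.49 and −2.95 ± 0.66. Ccl2, which attracts monocytes, averaged −5.77 ± 0.50, and Ccl3 and Ccl4 were read in some samples. Cxcl12, a homeostatic chemokine of stromal cells, averaged 0.03 ± 0.23 and Cx3cl1 −1.39 ± 0.70. The neutrophil attractant Cxcl1 averaged −6.12 ± 0.84 (n = 3), and Cxcl2 was read in 2 samples.

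All 8 panel genes of the prostaglandin and leukotriene pathway, which include the receptor Ltb4r1 and the activating protein Alox5ap, were read throughout, against 78.4% of the panel. Lta4h, which makes leukotriene B4, averaged 0.11 ± 0.29. Ptgs1, the constitutive cyclooxygenase, averaged −3.13 ± 0.67, and the inducible Ptgs2 −6.33 ± 0.94 (n = 3). Ptgs2 had −7.34, −5.50 and −6.14 in samples 4, 5 and 6. Nos2, the inducible nitric oxide synthase, had −5.57, −5.80, −4.18 and −5.17 (−5.18 ± 0.72), highest in healthy sample 5. Of 20 complement and macrophage genes, 16 were read throughout, again near the share of the panel (78.4%). The C1q chains C1qa, C1qb and C1qc, made by macrophages, averaged −0.93 ± 0.22, −1.08 ± 0.30 and −1.11 ± 0.56. C8a and Hc, the gene of C5, did not amplify.

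In the BMP, activin and TGF-beta family 9 of 32 genes were scarce, against 76 of 584 panel genes. Bmp3 was the highest at −0.84 ± 0.74 with 0.15, −0.73, −1.24 and −1.54. Tgfb1 averaged −3.47 ± 0.31 and its receptor chain Tgfbr1 −2.55 ± 0.20. Kitl, the ligand of Kit, averaged −0.53 ± 0.07.

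**Figure D2:**
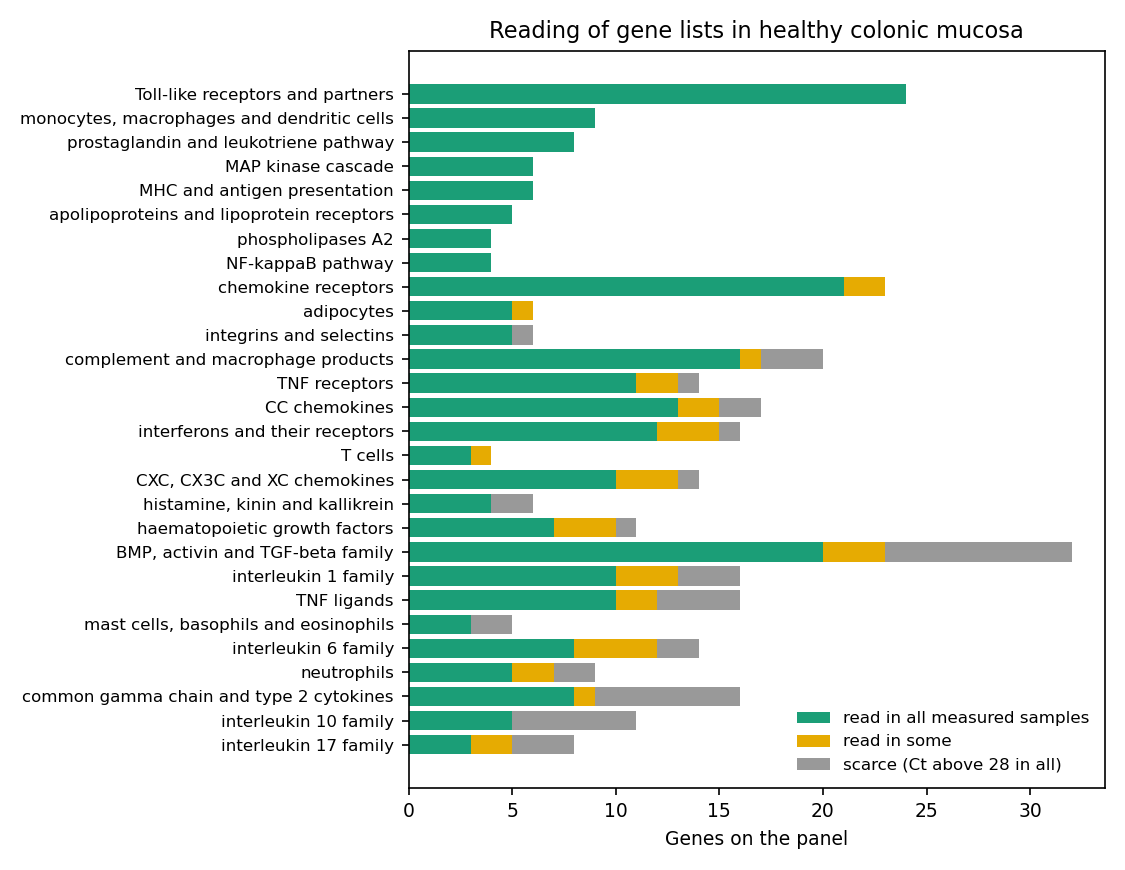
Number of panel genes of each list that were read in all measured healthy samples (green), in some (yellow) or in none (grey, scarce, Ct above 28), for lists with at least 4 genes on the panel, ordered by the share read throughout. All 24 Toll-like receptors and partners were read throughout, while 6 of 11 interleukin 10 family genes and 7 of 16 common gamma chain and type 2 genes were scarce.

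The limit of 28 cuts through a continuum. By mean Ct, just inside it lay Serpinf2 and Csf2, both at a mean Ct of 27.78, Cxcl11 at 27.88, Olr1 at 27.89 and Cxcl2 at 27.99. Just outside lay Il23a at 28.05, Ghrl at 28.09, Fasl and Tnfrsf25 at 28.20, and Osm at 28.24. The classes use the Ct of each sample instead, and no gene on either side was read throughout. Csf2, Cxcl11 and Cxcl2 were read in some samples, as were Il23a, Fasl, Tnfrsf25 and Osm. The lowest genes read throughout were Ryr1 at −8.08 ± 0.38, Pla2g2e at −7.92 ± 0.67 (n = 3), Inhbb at −7.86 ± 0.44, Tnfsf8 at −7.84 ± 0.28, Il18rap at −7.81 ± 0.30, Il12rb1 at −7.56 ± 0.11, Eda2r at −7.47 ± 0.47 and Il13ra2 at −7.43 ± 0.40.

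In 6 genes a sample without amplification stood beside a sample with a Ct of 25 or lower. Il4ra, the interleukin 4 receptor chain, had 21.3, 21.3 and 21.6 in healthy samples 4, 5 and 6 and no amplification in sample 3. Il1f5 and Cer1 had 18.0 and 17.7 in sample 3 and no amplification elsewhere. Epo, Il1f10 and Cxcl3 were split in the same way. A failed or spurious well and a true difference cannot be told apart from a single Ct.

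The SD of the level over the healthy samples had a median of 0.38 among the 442 genes, quartiles of 0.24 and 0.59, and a range from 0.03 to 2.65. An SD above 1 marked 36 (7.86%) of the 458 genes read throughout, or 34 genes without the reference genes Ywhaz and Rplp2. None of the abundant genes was among them. The steadiest genes were Plp2 (SD 0.03), Sdcbp and Ripk2 (each 0.05, n = 3), S1pr3 (0.06), Il15 and Kitl (each 0.07). Their rank as steadiest depends on the reference: without Ywhaz and Rplp2 in it, the SD of Plp2 was 0.28 and that of Il15 0.27. The list of variable genes depends on it too. With that change 38 genes had an SD above 1, of which 32 were among the 36. The SD of Bmp5 fell from 1.02 to 0.84, and that of Il1b rose from 0.94 to 1.16. Ywhaz itself ran from −6.70 in healthy sample 3 to 0.68 in sample 6. Leaving both genes out moved sample 3 by −0.35 and sample 6 by 0.23 relative to the mean of the 4 samples. Differences of that size between these samples depend on the reference.

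The kind of assay went with the spread. Assay names that end in s1 or sH mark, by the supplier's naming, primers and probe that lie inside 1 exon; such assays also read genomic DNA where it is present, and the labels name no DNase step. Of 54 such assays 52 (96.3%) were read throughout and 0 were scarce, against 454 of 594 (76.4%) and 87 for the other assays. An SD above 1 was found in 25 (48.1%) of the 52 and in 17 (3.74%) of the 454. The other kinds were not alike. An SD above 1 marked 5 of 49 read assays with names ending in g1 (10.2%) and 11 of 400 ending in m1 (2.75%). Sample 5 was the lowest in 18 of the 49 and in 78 of the 400. The median Ct of the 52 assays inside 1 exon was 24.3, with quartiles of 23.2 and 24.7. The median deviation from each assay's own mean was 0.80, 0.39, −1.03 and −0.17 in healthy samples 3, 4, 5 and 6, against 0.09, 0.00, 0.02 and −0.06 for the other assays. Of the 52, 40 were lowest in sample 5. The part of genomic DNA in these values was not tested.

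Of the 34 variable genes, 22 were read only by assays inside 1 exon. They comprised 8 chemokine receptors, among them Ccr3, Ccr6, Ccr8 and Cxcr6, 6 interferons, among them Ifna2, Ifnb1 and Ifne, and the receptors Tlr11 and Tlr12. All 8 variable chemokine receptors and all 6 variable interferon genes were read this way. Without Ywhaz and Rplp2 in the reference, 6 chemokine receptors were variable. The SDs of Cxcr6 and Xcr1 were then 0.91 and 0.87. Ccr3, the eotaxin receptor, had −3.87, −4.11, −7.41 and −5.44. Ifna2 had −4.02, −3.97, −6.93 and −4.39. Sample 5 was the lowest in 20 of the 22 genes. Where 1 gene was measured by both kinds, the assay inside 1 exon gave the lower mean Ct in Hrh1 (23.28 against 27.69), Cxcr3 (23.45 against 25.53) and Ccr3 (24.79 against 27.09). It gave the higher one in C3ar1 (24.04 against 22.59) and Bmp3 (20.47 against 20.38). In the reference gene Gusb its 21.61 lay between 21.29 and 21.69 of the other assays. In Lefty2 it gave 24.84, against 24.54 and no amplification in the other assays. Every interferon ligand read throughout, and every variable chemokine receptor, rests on an assay of this kind.

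**Figure D3:**
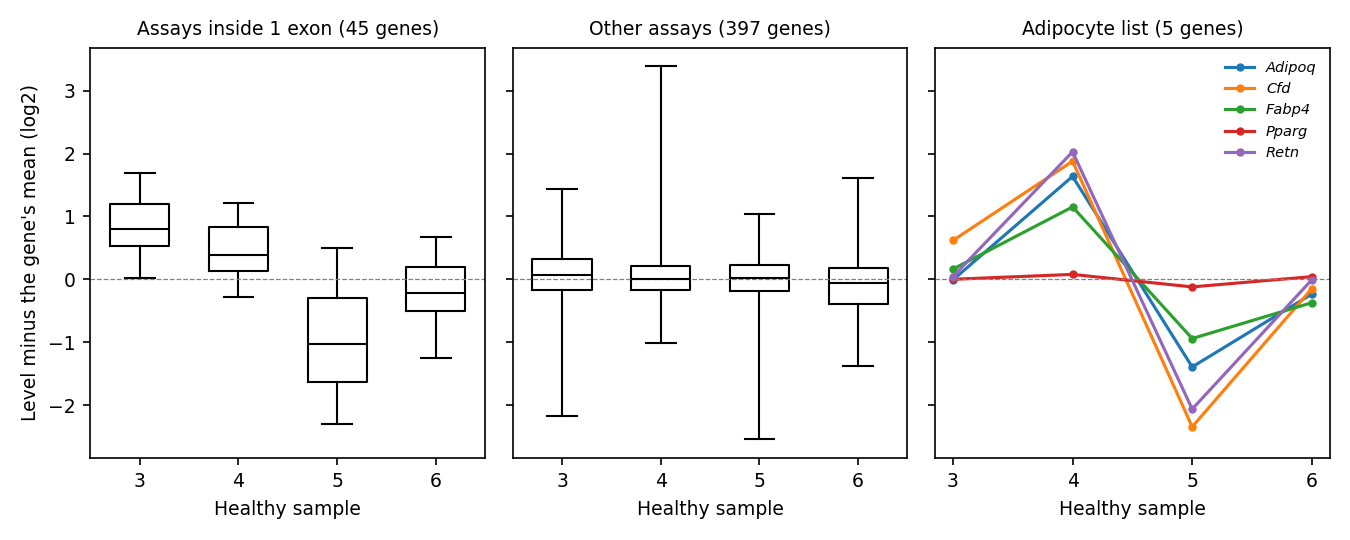
Deviation of the level in each healthy sample from the gene's own mean (log2), for genes read only by assays inside 1 exon (left), for all other genes (middle) and for the adipocyte list (right, a line per gene). Boxes give the quartiles, the line inside the median, and whiskers the full range. The left panel lies low in sample 5, the middle panel is centred near 0 in every sample, and 4 of the 5 adipocyte genes are high in sample 4 and low in sample 5.

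For the other 12 variable genes at least 1 assay of another kind was used, and for Lefty2 an assay of each kind was averaged. The other Lefty2 assay used ended in g1 and had Ct values of 23.8, 23.5, 26.7 and 24.1 in samples 3, 4, 5 and 6. The assay inside 1 exon had 23.8, 23.8, 27.2 and 24.6. The 12 genes were not split by g1 and m1, so they are not shown to be free of a pattern of assay kind. Of these, 8 were highest in healthy sample 4 and 9, Lefty2 among them, lowest in sample 5. Saa3, an acute-phase serum amyloid of macrophages, adipocytes and epithelium, varied most, with −4.57, 0.98, −4.45 and −1.57, a range of 47.1-fold. Sample 4 alone lay above the reference mean. Its relative Saa1, the abundant form, was highest in sample 3 and spanned 2.16-fold.

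Genes of fat tissue moved together across the samples. Cfd, the protease adipsin, had −0.35, 0.91, −3.32 and −1.12. The hormone Retn, resistin, had −3.35, −1.37, −5.46 and −3.40, and Adipoq, adiponectin, −2.03, −0.39, −3.41 and −2.26. In these 3 genes and in Fabp4, healthy sample 4 was the highest and sample 5 the lowest. Pparg, the adipocyte regulator that colonic epithelium also expresses, stayed between −1.54 and −1.34. Lep, leptin, had its lowest Ct, 25.3, in sample 4. Over the 5 genes of the adipocyte list read throughout, the median deviations were 0.04, 1.64, −1.39 and −0.15. The amount of fat in each tissue sample was not measured.

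The remaining variable genes included C3, the central complement component, with 1.05, −1.25 and −0.19 in samples 4, 5 and 6, and Trf, transferrin, with 0.13, −1.91 and −0.96. Over these 3 samples both were highest in sample 4 and lowest in sample 5, as were Cfd, Retn and Adipoq. This order was not particular to genes of fat tissue. Saa3, S100a9 and Ifna2 shared it, and 29 of the 34 variable genes were lowest in sample 5. Serpina3c and the protease inhibitor Serpina1a were also lowest in sample 5, at −7.81 and −4.70. Bmp5 differed, with −2.32, −3.83, −2.44 and −4.37, high in samples 3 and 5. Lefty2, an inhibitor of Nodal signalling, had −3.68, −4.31, −7.65 and −4.80 from 2 assays, 1 of them inside 1 exon, while a further assay of the same gene did not amplify at all.

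**Figure D4:**
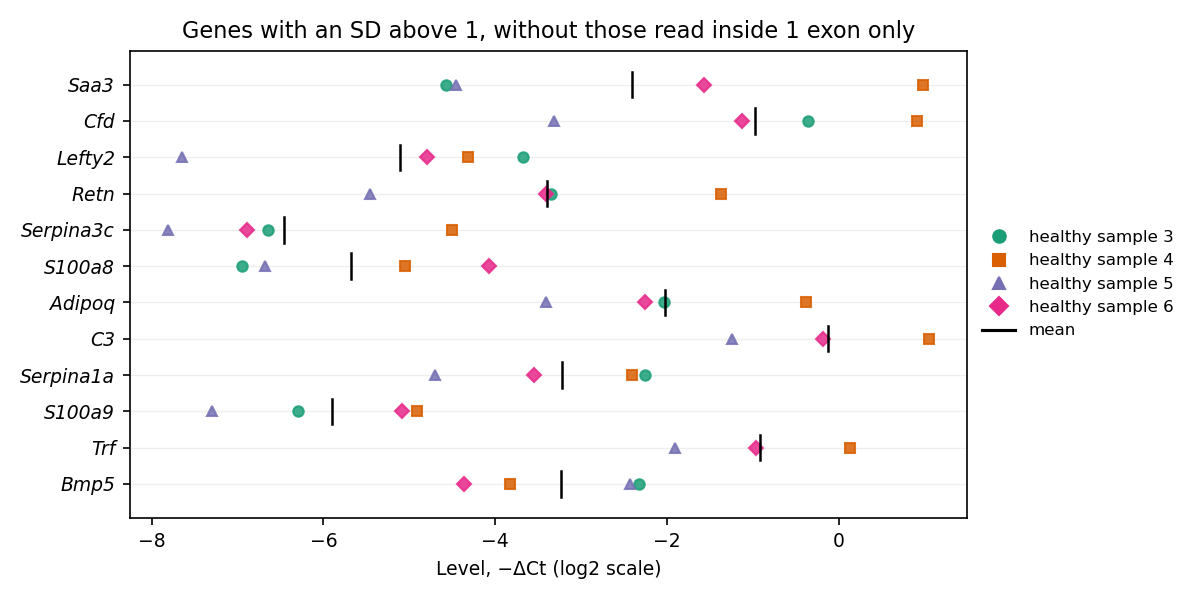
Levels (−ΔCt, log2 scale) in healthy samples 3 to 6 of the 12 non-reference genes with an SD above 1 that were not read by assays inside 1 exon only, ordered by SD, with the mean as a black bar. Saa3 has the widest spread (SD 2.65), and 8 of the 12 genes are highest in sample 4.

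Over the genes read throughout, the spread rose moderately towards low levels. A low gene with a wide spread leaves this set once a sample has a Ct above 28. The SDs at the lowest levels are therefore limited by the read rule, and the trend there is partly fixed by it. Among genes not read by assays inside 1 exon only, the median SD was 0.30 at levels of 0 or higher, 0.28 from −2 to 0, 0.35 from −4 to −2, 0.41 from −6 to −4 and 0.46 below −6. In the band from −6 to −4, genes read inside 1 exon only had a median SD of 1.17 (30 genes) against 0.41 for the others (95 genes). Between pairs of samples, the share of genes that differed by more than 1 unit ran from 9.95% (samples 4 and 6) to 26.2% (samples 3 and 6).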

How the data were processed

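RNA from mouse colonic mucosa was measured with the TaqMan OpenArray Mouse Inflammation Panel, per the labels' protocols. The authors deposited raw cycle thresholds (Ct), a unit recorded as other, with no normalization. The threshold software and any DNase treatment are not given in the sources used here. A Ct gives no molecule number, so counting error is not stated.

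Columns were matched to the 4 healthy samples by their titles, and the 12 columns of the other groups were not used. Of 2592 healthy values, 66 equalled the mean of the other 3 healthy samples within 2e-06. These were read as filled gaps and counted as not measured, 57 of them in healthy sample 3, so that 35 genes read throughout have 3 values. The digit pair 40 was missing from most decimals and from assay names (Cd40 is listed as Cd). A further 120 values, or 5.04% of the amplified ones, carried at most 4 decimals, may be off by less than 1 cycle, and were kept.

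The reference was the mean Ct of 13 genes (20 assays), including Ywhaz, Rplp2, Gapdh, Tbp, Ppia, Polr2a, Actb, Ipo8, Hprt1, Pgk1 and Gusb; some are not reported here by name. Filled values stayed in this mean. A gene with several assays used those read in the most healthy samples, averaged. A gene needed 3 measured samples.

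Genes were named by rule: the 15 highest and 8 lowest of those read throughout, the 5 nearest to a Ct of 28 on each side, the 12 largest and 6 smallest SDs, the highest, lowest and most variable gene of each list, and a list of effector genes. Some genes that this rule picks are left out of the text above. Other genes were named after their values were seen. Members and lists were chosen with earlier results of these data known. No test was run. Alternatives varied the reference, the Ct limit, the treatment of filled and short values, the choice of assay, the samples and, added after seeing the data, assays inside 1 exon. The steps were checked on simulated data and run in Python 3.11.15 with numpy 2.4.6 and pandas 2.3.3.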

Additional observations from a re-analysis of the deposited data

Results flagged for a closer look

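In 7 of 91 named genes with 4 values, a single healthy sample stood apart from the other samples by more than Dixon's 95% critical value (the gap to the nearest sample over the whole range). Chance gives about 1 such gene in 20, and over all genes with 4 values it was 27 of 408 (6.62%). Healthy sample 5 stood apart in 3 of the named genes, sample 6 in 2, and samples 3 and 4 in 1 each.

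In healthy sample 5, the tight-junction gene F11r had a level of 1.54, against 0.79 to 0.85 in the other samples. The T helper cell marker Cd4 had −4.47 there, against −5.26 to −5.15. Ifna2, read by an assay inside 1 exon, had −6.93, against −4.39 to −3.97. In healthy sample 6, Apoe had −0.0783, against 0.82 to 0.99, and the bacterial sensor Nod2 had −7.66, against −5.89 to −5.66. Ctf1, a cytokine of the interleukin 6 family, had −7.78 in healthy sample 3, against −6.60 to −6.49. Itgam, the myeloid integrin CD11b, had −2.61 in healthy sample 4, against −4.32 to −4.08.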

How the results depend on the processing

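The order of mean levels was nearly the same under all alternatives run (Spearman's rho with the reported order 0.995 or higher, across genes, as a description), and 13 to 15 of the 15 highest genes stayed. For a change of reference this was fixed in advance, since it adds the same amount to every gene of a sample. A change of the Ct limit alters a level only where it alters the assays used. These settings therefore say little about the order. Counts moved with where the limits were set. The number of abundant genes was 2 with Gapdh alone as the reference and 211 with the global mean of all genes, since both shift the zero of the scale, and 30 without Ywhaz and Rplp2, against 42. The number of scarce genes was 126 at a Ct limit of 26, 44 at 30 and 27 where any Ct under 40 counted as read, against 76. The number of variable genes was 17 at a limit of 26, 76 where any Ct under 40 counted and 15 without assays inside 1 exon (chosen after seeing the data), against 36.

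Leaving out each healthy sample in turn gave 37 to 41 abundant genes, 424 to 469 genes read in all measured samples, 70 to 74 scarce genes and 25 to 42 variable genes. Some counts fell by construction, because a gene filled in sample 3 then has fewer than 3 measured values. Without healthy sample 5 the variable genes numbered 25, of which 13 were among the reported 36, so most of that list rests on sample 5. No paired analysis was possible because the results come from no test and 1 group. With 4 samples an SD is imprecise, a level below about −8 cannot be read, and levels of different genes carry assay efficiency.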
